A study of Mus musculus with 4 samples.

Results

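The cytosolic ribosomal protein genes are the rows of the expression table whose symbol begins with Rpl or Rps followed by a digit, together with Rplp0, Rplp1, Rplp2 and Rpsa, without the ribosomal S6 kinases (Rps6k) and without named pseudogenes (-ps). They were 85 of the 17335 genes in the table, 52 named for the large subunit and 33 for the small subunit. The members were set by name and not by any measured value, although earlier results of these data were known when the family was chosen. RNA was measured by RNA-Seq in gonadal white adipose tissue (gWAT) of female mice that had been fed a high-fat diet (HFD), with 60% of calories from fat, for 18 weeks. The fl/fl mice carried Dnmt1 alleles flanked by loxP sites and served as littermate controls. The AD1KO mice carried the same floxed alleles and a Cre recombinase driven by the adiponectin promoter, which acts in mature adipocytes, so that macrophages, lymphocytes, endothelial cells and stromal cells of the depot keep Dnmt1. Their age was not given in the sources used here. RNA of 4 animals was pooled in each group, which left 1 library per group, fl/fl and AD1KO, and no measure of the spread between animals.

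Ribosomal proteins coat and brace the ribosomal RNA of the large and small subunit, usually as a single copy per ribosome. Their mRNAs are among the most abundant of any cell. Most of them begin with a run of pyrimidines, the 5' terminal oligopyrimidine (TOP) tract, through which mTOR and LARP1 control their translation. In adipose tissue, large lipid-filled adipocytes share the depot with small immune and stromal cells, and the content of ribosomal protein mRNA differs between such cell types.

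In the AD1KO library the members were lower almost without exception, and by a similar amount. Of the 85 members, 83 had a log2 ratio of AD1KO to fl/fl below 0, which is 97.6% against 53.8% of the 15839 genes tested. The median log2 ratio of the members was -0.37, a level 22.4% lower, with quartiles of -0.44 and -0.28, and the median of all genes tested was -0.04. The ratio is that of FPKM, read fragments scaled to transcript length and to library depth, after 0.01 FPKM was added. Values are read with 95% counting intervals, which come from the estimated number of reads behind each gene and cover counting error only. With 1 library per group there is no replicate check, no test between genotypes was possible, and no p-value is given.

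Few members crossed the study's own limit of 0.5 on the log2 scale. Only 9 of 85 were lower by at least 0.5, or 10.6%, against 19.1% of all genes tested, and 0 were higher by at least 0.5, against 14.3% of all genes tested. The members thus shared a direction and a narrow range, and few of them had a large ratio. Read by counting error, 77 members (90.6%) had a whole interval below 0, against 29.0% of genes tested. None of the 85 had a whole interval above 0, against 21.5% of genes tested, and the intervals of 8 members held 0. Whether an interval clears 0 depends on the number of reads, and the median gene tested had about 570 over both libraries. Among 802 other genes with a mean of at least 100 FPKM, 308 intervals lay wholly below 0 and 384 wholly above. For the 73 members of that level these counts were 72 and 0. Only Rpl39l had a whole interval below -0.5, against 8.31% of genes tested. The count past 0.5 depended on the scaling of the libraries and was 1 to 4 under the other scalings tried, which move the median of all genes tested up by 0.04 to 0.09. Members below 0 numbered 81 to 83 under every scaling, pseudocount and filter tried. These scalings moved log2 ratios by no more than 0.09, which is small beside the members' median of -0.37. Pseudocounts and filters cannot turn a sign. That the shared direction stayed is therefore no check of it. Rpl13, at -0.50, was just past the limit of 0.5, and Rps29, at -0.49, just short of it.

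The libraries were close in depth, with an estimated 17550000 reads in fl/fl and 17450000 in AD1KO. The approximate reads estimated gene by gene summed to 17702661 and 17570942, slightly above these depths. Dnmt1, the targeted gene, had 6.99 FPKM in fl/fl against 3.33 FPKM in AD1KO, which is a log2 ratio of -1.07 (interval -1.27 to -0.87). This value covers the whole gene in the whole tissue, not only the deleted exons in adipocytes. Esr1 had 4.82 and 8.44 FPKM. Markers of adipocytes were high in both libraries, as the tissue label requires, with Adipoq at 1911 FPKM in fl/fl and 3318 FPKM in AD1KO.

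**Figure D1:**
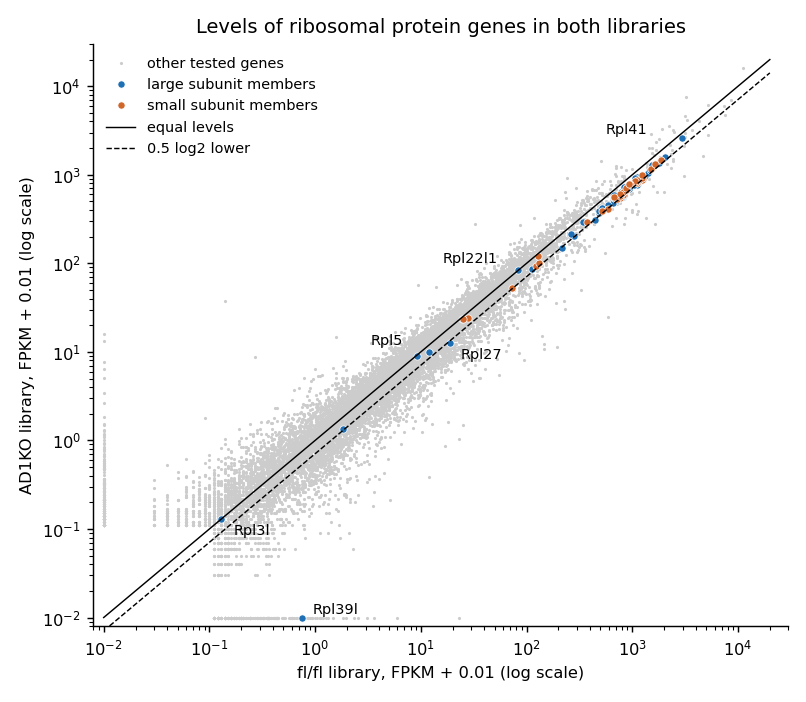
Level of each gene in the AD1KO library (vertical axis) against the fl/fl library (horizontal axis), both as FPKM + 0.01 on log scales, with the 85 ribosomal protein members in colour by subunit and the other genes tested in grey. The members with a mean of at least 100 FPKM lie in a narrow band below the line of equal levels, 7 of 73 of them past the line 0.5 log2 lower, while Rpl22l1 and Rpl5 lie on the line of equal levels and Rpl39l is listed at 0 in AD1KO.

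Start-site sequences are shown first, because the TOP tract is the sequence feature that ribosomal protein mRNAs are known for. RefSeq promoter windows (build GRCm38.p6, 250 bases before to 50 after an annotated start) were found for 65 of the 85 members. Each line below gives 40 bases before and 20 bases from an annotated start, 5' to 3' on the gene's strand. Capitals mark the longest unbroken run of C and T that comes within 20 bases of the start, where it has at least 8 bases. Of runs of equal length only the first is marked, as at Rps27l, where another lies nearer the start. Rpl35 at chr2:39005112-39005171 (minus strand), Rps27 at chr3:90213629-90213688 (minus strand) and Rplp2 at chr7:141447611-141447670 (plus strand) are abundant members with the run.
Rpl35: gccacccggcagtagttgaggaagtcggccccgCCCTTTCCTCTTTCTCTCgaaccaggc
Rps27: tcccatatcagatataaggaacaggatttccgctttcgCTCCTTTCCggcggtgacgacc
Rplp2: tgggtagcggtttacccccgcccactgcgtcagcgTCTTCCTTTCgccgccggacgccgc
Rpl35a at chr16:33056442-33056501 (plus strand) and Rpl13 at chr8:123102310-123102369 (plus strand) hold the run too and were among the members lower by at least 0.5. Rpl37 at chr15:5116573-5116632 (plus strand) was lower by as much and has no such run.
Rpl35a: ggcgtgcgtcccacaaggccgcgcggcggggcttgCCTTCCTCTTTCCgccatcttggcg
Rpl13: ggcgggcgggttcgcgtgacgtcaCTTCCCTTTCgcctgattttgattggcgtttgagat
Rpl37: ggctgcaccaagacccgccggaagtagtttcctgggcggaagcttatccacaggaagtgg
Rpl41 at chr10:128549149-128549208 (minus strand), the most abundant member, has no run of this length. Among the paralogs, the run is present at Rpl22l1, chr3:28805468-28805527 (plus strand), and Rps27l, chr9:66946046-66946105 (plus strand), and absent at Rpl7l1, chr17:46782637-46782696 (minus strand).
Rpl41: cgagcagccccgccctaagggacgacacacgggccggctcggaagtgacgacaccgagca
Rpl22l1: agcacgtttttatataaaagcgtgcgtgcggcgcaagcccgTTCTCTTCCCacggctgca
Rps27l: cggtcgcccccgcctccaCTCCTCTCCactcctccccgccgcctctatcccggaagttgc
Rpl7l1: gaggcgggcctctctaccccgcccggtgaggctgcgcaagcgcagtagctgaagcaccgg

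The run was present in 33 of 65 members, or 50.8%, against 23.7% of the 27025 genes with a promoter window and 25.9% of 621 other genes with a mean of at least 100 FPKM. Among members of at least 100 FPKM, the 28 with the run had a median log2 ratio of -0.36 and the 25 without it also had -0.36. The medians were thus alike with and without the run, but this split does not separate TOP mRNAs from others. Rpl12, with a run of 7 bases beside the start, counted as without it. Rps24, whose run spans -37 to -19 from the start, counted as with it. Annotated starts can lie some bases from the true start, so that a missing run says only that these letters are not in this window. The motif CCGGAAG, searched on both strands of the 300-base window, was found in 26 of 65 members, in 9.93% of all genes and in 18.0% of other genes of at least 100 FPKM. Abundant members with it (24) had a median of -0.36, as did the 29 without it. The E-box CACGTG, which reads the same on both strands and is the motif bound by Myc and Max, was found in 6 of 65 members, or 9.23%, which lies between 8.09% of all genes and 10.6% of other genes of at least 100 FPKM. AAGATGGCG, searched on both strands, was found in 4 of 65 members (6.15%), in 1.64% of all genes and in 3.06% of other genes of at least 100 FPKM. The TATA-box letters TATAAA, searched on both strands, were found in 10.8% of members, 15.7% of all genes and 15.0% of other genes of at least 100 FPKM.

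Among the most abundant members, Rpl41, a very short basic peptide of the large subunit, had 2939 FPKM in fl/fl against 2609 FPKM in AD1KO, which is a log2 ratio of -0.17 (interval -0.20 to -0.14). Rpl35, at the exit of the peptide tunnel, had 2023 and 1573 FPKM, a log2 ratio of -0.36 (interval -0.40 to -0.32). Rps27 had 1869 and 1464 FPKM, a log2 ratio of -0.35 (interval -0.40 to -0.31). All of these were lower in AD1KO, and Rpl41, although the highest in level, was lower by the least of them. Rpl23a, also at the tunnel exit, had 1774 and 1372 FPKM (-0.37), and Rps15, a small subunit protein near the decoding site, had 1630 and 1338 FPKM (-0.28).

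The members that were lower by at least 0.5 came from both subunits. Rpl35a, a large subunit protein whose human gene is mutated in Diamond-Blackfan anaemia, had 810.7 FPKM in fl/fl against 558.5 FPKM in AD1KO, which is a log2 ratio of -0.54 (interval -0.60 to -0.48). Rpl37 had 218.55 and 149.95 FPKM, a log2 ratio of -0.54 (interval -0.63 to -0.46). Rps27a, which is made as a fusion with ubiquitin and so supplies both a small subunit protein and free ubiquitin, had 591.1 and 408.8 FPKM (-0.53). The value of Rpl37 was 31.4% lower, the largest share among members with a mean of at least 100 FPKM. Rpl23 had 800.8 and 557.5 FPKM (-0.52), and Rpl17, at the peptide exit tunnel, had 1103 and 768.9 FPKM (-0.52). Rps24, another gene of Diamond-Blackfan anaemia, had 1266 and 889.2 FPKM (-0.51), and Rpl13 had 440.05 and 310.55 FPKM (-0.50, interval -0.56 to -0.44). None of these intervals, from Rpl35a to Rpl13, lay wholly below -0.5.

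A pair of low members also passed the limit. Rpl27 had 18.69 FPKM in fl/fl against 12.7 FPKM in AD1KO, which is a log2 ratio of -0.56 with a wide interval of -0.88 to -0.24. Rpl39l, a testis-enriched copy of the tunnel protein Rpl39, had 0.74 FPKM, or about 9 reads, in fl/fl and was listed at 0 in AD1KO. Against a floor of 3 reads in the AD1KO library its 9 reads give a level at least 2.98-fold lower, and the counting interval of the ratio, which also holds the error of those 9 reads, reached up to -0.97. Its fitted ratio rests on the 0.01 FPKM added. The bound would still be the lowest ratio among the members, so the median of -0.37 is the same with either by construction.

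Both subunits were lower to a similar degree. The large subunit members had a median of -0.36 and the small subunit members -0.38. From summed reads the ratio was -0.35 for the large subunit and -0.38 for the small. Leaving aside paralogs, a retrogene copy and Rps19bp1, which is a nucleolar binding partner of Rps19 and not a part of the mature ribosome, 77 core members remained, and 77 of 77 were below 0. Of all genes tested, 53.8% were below 0. All 31 core members of the small subunit had a whole interval below 0, against 29.0% of all genes tested. Groups of neighbours within the ribosome were also read. The 11 proteins around the peptide exit tunnel had a median of -0.37, 5 proteins around mRNA entry and decoding -0.34, 5 at the mRNA exit -0.36 and 4 of the stalk and its base -0.33, while the named entries of both proteins of the 5S particle, Rpl5 at a low level, had a median of -0.13. For 19 members whose human genes are mutated in Diamond-Blackfan anaemia, an inherited failure of red cell formation, 19 of 19 were below 0 with a median of -0.36. This is close to the whole family, of which 97.6% were below 0 with a median of -0.37.

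The stalk is the arm of the large subunit where translation factors bind, and its proteins were spread over the range of the family. Rplp0, the stalk base that is widely used as a reference gene in PCR, had 829.5 FPKM in fl/fl against 728.7 FPKM in AD1KO, which is a log2 ratio of -0.19 (interval -0.22 to -0.16), or 12.2% lower. The acidic stalk protein Rplp1 had 1543 and 1292 FPKM (-0.26), while its partner Rplp2 had 1400 and 1060 FPKM (-0.40). Rpl12, which sits under the stalk, had 1122 and 820.8 FPKM (-0.45, interval -0.49 to -0.41). The intervals of Rplp0 and Rplp1 did not overlap those of Rplp2 and Rpl12.

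Rpl5 and Rpl11 form, with 5S rRNA, the particle that binds Mdm2 when ribosome assembly fails. Rpl11 had 1098 FPKM in fl/fl against 938.3 FPKM in AD1KO, which is a log2 ratio of -0.23 (interval -0.27 to -0.18). Rpl5 was listed at 9.25 and 9.03 FPKM, a ratio of -0.03 whose interval, -0.27 to 0.20, held 0. Rpl5 was above 0 under each of the 4 other scalings tried. Its low level came with a separate unnamed entry, described below.

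The narrow range held across a wide range of levels. In the 73 members with a mean of at least 100 FPKM, fl/fl levels ran from 123.3 to 2939 FPKM and reads per library from 833 to 23440. Every member of this set was lower in AD1KO, by 5.85% to 31.4%. The standard deviation (SD) of their log2 ratios was 0.0967, while 802 other genes of the same level had an SD of 0.61, a median of 0.05 and 45.1% below 0. A narrow range was not particular to the members. Quartiles were -0.43 and -0.31 for these 73 members and -0.26 and -0.16 for other mRNAs with a TOP tract. For mitochondrial ribosomal protein genes they were -0.03 and 0.14. Ribosomal protein mRNAs are short, and 303 other abundant genes of up to 1100 bases had a median of -0.02 with 51.8% below 0. From summed reads, the ratio of these 303 genes was -0.14, against 0.07 for all 802 other abundant genes. The whole family had a ratio of -0.36 from summed reads. Counting intervals of 30 members held this ratio, 22 lay below it and 21 above it, so that differences within the family exceeded counting error for 43 of 73. Whether they exceed the spread between animals cannot be told from 1 pooled library per group. Across these 73 genes Spearman's rho of the ratio was -0.11 with transcript length and 0.07 with mean FPKM, given as a description of genes that share libraries and reads.

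**Figure D2:**
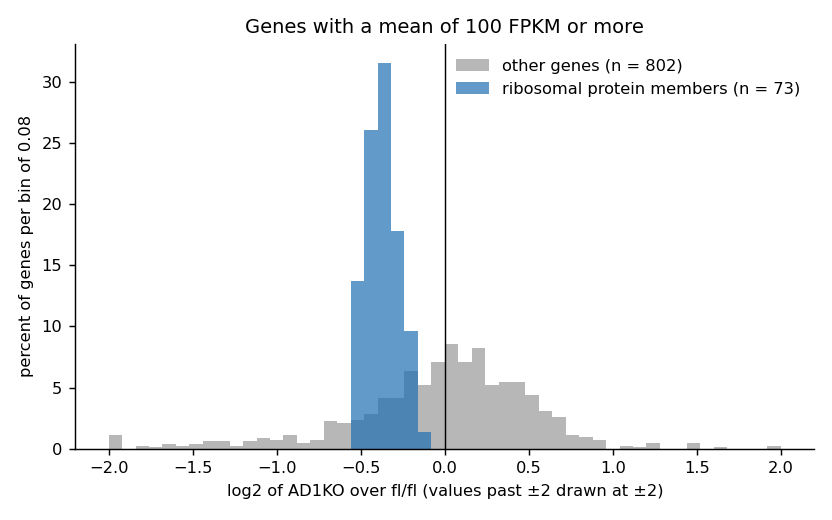
Distribution of the log2 ratio of AD1KO to fl/fl (horizontal axis) among genes with a mean of at least 100 FPKM, as percent of genes per bin of 0.08, for the 73 ribosomal protein members and 802 other genes. The members form a narrow peak around -0.36 with none above 0, while the other genes are centred near 0 and spread far wider.

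Together the members held 11.4% of all summed FPKM in fl/fl and 9.36% in AD1KO. As the mRNAs are short, their share of estimated reads was smaller, 3.83% in fl/fl and 2.98% in AD1KO. The members' summed FPKM was 65487 in fl/fl and 51033 in AD1KO, and the ratio of their summed reads was -0.36 (interval -0.37 to -0.36).

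Paralogs stand in for a core protein in some tissues or stages. Of the 6 paralogs, 4 were closer to equal levels than the partner, while Rpl39l, described above with about 9 reads, was lower than Rpl39 (-0.36). Rpl22l1, the paralog of Rpl22, had 83.37 FPKM in fl/fl against 84.13 FPKM in AD1KO, which is a log2 ratio of 0.01 (interval -0.16 to 0.19). It was the only member above 0, and Rpl22 had 111.6 and 86.55 FPKM (-0.37, interval -0.43 to -0.30). Hence the level of Rpl22l1 relative to Rpl22 was higher in AD1KO, by 0.38 on the log2 scale, with intervals that did not overlap. Rps27l, a p53-inducible paralog of Rps27, had 128.0 and 120.5 FPKM (-0.09, interval -0.22 to 0.05), against -0.35 for Rps27. Rpl36al had 343.9 and 296.3 FPKM (-0.21), against -0.46 for Rpl36a. Rpl7l1, the paralog of Rpl7, had 24.64 and 23.43 FPKM (-0.07), against -0.37 for Rpl7. The interval of the paralog did not overlap that of the partner in any of these 4 pairs, although the ratio of Rpl7l1 turned positive under upper-quartile scaling. Rpl3l, the striated muscle form of Rpl3, was at 0.12 FPKM in both libraries, about 3 reads in each, and allows no comparison. The retrogene copy Rpl37rt had about 18 and 13 reads, and its interval held 0. Reads from near-identical copies can be split between family members in ways the sources used here do not give, so values of copies are uncertain.

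Several members were listed at a low level beside a second, unnamed entry for the same protein that carried more reads. The table held 107 unnamed entries that its own annotation gives as eukaryotic ribosomal proteins. Of these, 11 had a mean of at least 100 FPKM, and 11 of 11 were lower in AD1KO, against 45.1% of 802 other genes at that level. The entries were chosen after their values were seen. The entry annotated as L5 had 555.4 FPKM in fl/fl and 449.8 in AD1KO, and with the reads of Rpl5 added the ratio was -0.29 (interval -0.34 to -0.25). For S6, the substrate of the S6 kinases, the named gene Rps6 had 28.1 and 24.23 FPKM while the unnamed entry had 1083 and 789.3 FPKM, and the ratio of both was -0.45. For L10, Rpl10 had 11.95 and 10.03 FPKM against 1612 and 1271 FPKM in the unnamed entry, and the ratio of both was -0.34. Once the entries were summed, all 3 lay inside the range of the abundant members. The named entries of Rps6 (-0.21) and Rpl10 (-0.25) already lay inside it, and that of Rpl5 (-0.03) did not. For L27 the sum gave -0.19 (interval -0.26 to -0.12) in place of -0.56, and for L13 it gave -0.39 in place of -0.50, so that neither passed 0.5. For S13 it gave -0.51 in place of -0.36.

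**Figure D3:**
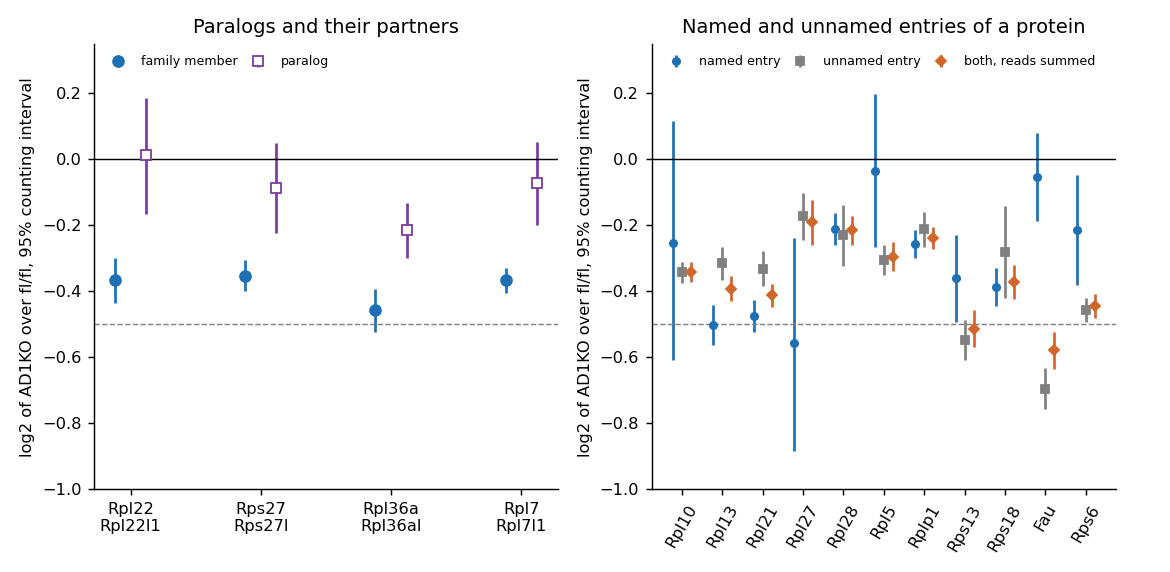
Left, log2 ratio of AD1KO to fl/fl (vertical axis) of 4 paralogs and their partners. Right, the same ratio for the named entry, the unnamed entry and the summed reads of 11 proteins. Points are ratios and bars 95% counting intervals; each paralog lies above its partner, and the summed values of Rpl5, Rpl10 and Rps6 fall between -0.45 and -0.29.

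Rack1 and Fau, ribosomal proteins whose names fall outside the rule, were also measured. Rack1, a signalling scaffold on the small subunit, had 543.0 FPKM in fl/fl against 417.9 FPKM in AD1KO, which is a log2 ratio of -0.38. Fau, the fusion that carries S30, had 118.09 and 113.85 FPKM (-0.05), while its unnamed entry had 768.6 and 475.0 FPKM, and both together gave -0.58 (interval -0.63 to -0.52).

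Genes that act with ribosomal proteins were read from lists by function, to be set beside all genes tested, of which 53.8% were below 0, 19.1% lower and 14.3% higher by at least 0.5, with a median of -0.04. Among these lists by function, mRNAs with a TOP tract that code for other proteins had the median closest to that of the members. It was -0.24, narrowly ahead of the RNA polymerase I machinery at -0.23. Of the 19 TOP mRNAs on the list, 18 were below 0 and 0 passed 0.5 in either direction. Tpt1 had 2324 FPKM in fl/fl and 1730 in AD1KO (-0.43), and the elongation factor Eef1a1 had 3177 and 2676 FPKM (-0.25). Nap1l1, a histone chaperone, was the exception at 0.17. Of 42 initiation and elongation factors, 29 were below 0 and the median was -0.10. The TOP list holds 10 of these, all below 0, and of the other 32 factors 19 were below 0 (59.4%), with a median of -0.03. Among the 42 only Eif4a2, a helicase of the cap-binding complex, passed 0.5, with 70.88 FPKM in fl/fl and 120.2 in AD1KO (0.76).

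Ribosome assembly factors, which process rRNA and build the subunits in the nucleolus, were below 0 for 62 of 74, with a median of -0.17. Lower by at least 0.5 were 4 of them (5.41%) and 0 were higher, both under the shares of all genes tested, 19.1% and 14.3%. Utp14a had 10.24 FPKM in fl/fl and 6.48 in AD1KO (-0.66), and fibrillarin (Fbl), the methyltransferase of rRNA, had 55.6 and 37.22 FPKM (-0.58). Of 15 genes of the RNA polymerase I machinery, which transcribes rRNA, 12 were below 0, the median was -0.23, and Taf1d was lower by at least 0.5 (-0.57). The amount of rRNA itself is not measured in these values.

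The regulators of ribosome synthesis did not share a direction. The list pools drivers of growth such as Myc with repressors such as Eif4ebp1, so its median does not measure growth control. Of 20 genes, 12 were below 0, 2 were lower and 2 higher by at least 0.5, and the median was -0.09. The shares below 0 (60%) and past 0.5 (10% each way) were near or under those of all genes tested. Myc, the transcription factor that drives ribosome synthesis, had 10.26 FPKM in fl/fl against 6.22 FPKM in AD1KO, which is a log2 ratio of -0.72 (interval -0.95 to -0.49). Its partner Max had 44.71 and 29.49 FPKM (-0.60, interval -0.72 to -0.48). On the other side, both genes rested on few reads. Eif4ebp3 had 2.01 and 3.29 FPKM, about 37 and 59 reads (0.71, interval 0.06 to 1.32). Mycn had 0.16 and 0.34 FPKM, about 7 and 15 reads, with an interval that held 0. Eif4ebp1, the repressor of cap-dependent translation that mTOR inactivates, had 285.95 and 393.82 FPKM (0.46, interval 0.41 to 0.52). Mtor itself had 4.21 and 5.49 FPKM (0.38). Larp1, the TOP binding protein, had 26.86 and 25.21 FPKM (-0.09), and the S6 kinase Rps6kb1 had 9.72 and 9.97 FPKM (0.04). Trp53, which encodes p53, had 37.53 and 30.11 FPKM (-0.32), and Mdm2 had 14.44 and 12.05 FPKM (-0.26).

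Other large complexes are given for comparison. The 78 mitochondrial ribosomal protein genes (Mrpl and Mrps), whose products translate the mitochondrial genome, had a median of 0.05 with 26 below 0, and 1 gene past 0.5 in each direction. The 14 core subunits of the 20S proteasome had a median of -0.17 with 13 below 0, the same direction as the members, and 0 past 0.5. Among 15 genes of ribosome quality control, 7 were below 0 and the median was 0.01. With 1 library per group, the differences between these lists were not tested.

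**Figure D4:**
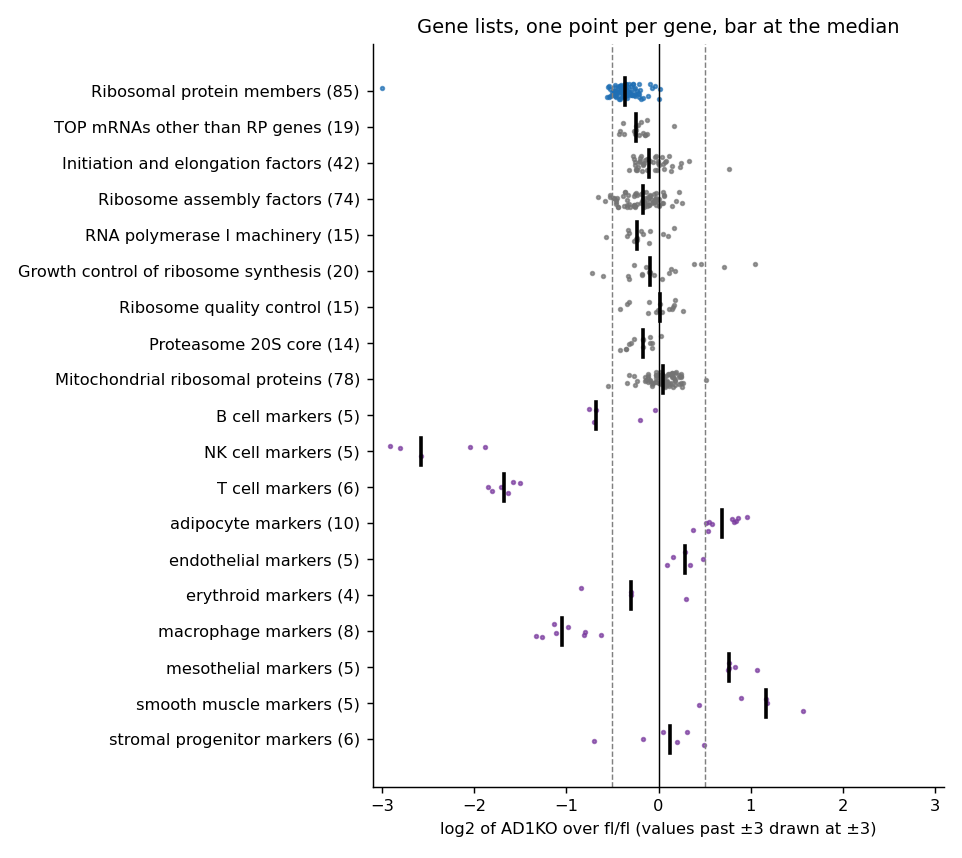
Log2 ratio of AD1KO to fl/fl (horizontal axis) of each gene in the ribosomal protein family, in lists of related function and in lists of cell type markers (number of genes tested in brackets), with a bar at the median and dashed lines at 0.5 in either direction. The members cluster around -0.37, mitochondrial ribosomal proteins lie around 0.05, macrophage, T cell and NK cell markers lie far to the left, and adipocyte markers lie to the right.

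Markers of several cell types also differed between the libraries. All 10 adipocyte markers were above 0, 9 of them by at least 0.5, with a median of 0.69, and their summed level was 16784 FPKM in fl/fl and 25683 FPKM in AD1KO. Macrophage markers were lower by at least 0.5 in 8 of 8, with a median of -1.04 and a summed level of 3724 and 1842 FPKM. T cell markers were lower in 6 of 6 (median -1.67, summed level 64.65 and 19.42 FPKM), NK cell markers in 5 of 5 (median -2.57, 19.36 and 4.46 FPKM), and B cell markers in 3 of 5 (median -0.68, 88.46 and 58.38 FPKM). Endothelial markers had a median of 0.29, and mesothelial (0.76) and smooth muscle (1.16) markers were higher. Stromal progenitor markers were split, with 4 of 6 above 0, 2 below 0 and a median of 0.12. Among them Pi16 was lower by at least 0.5 (-0.70, interval -0.78 to -0.61). Erythroid markers had a median of -0.30, and no marker on these lists was at 0 in either library. The part of these differences in the result for ribosomal protein genes was not tested. In bulk tissue, fewer cells of a type and less RNA per cell cannot be told apart.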

How the data were processed

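Gene expression in gWAT was measured in 1 library each of fl/fl and AD1KO mice, each a pool of equal RNA from 4 animals. The authors' provider mapped clean reads to the mm9 build and the authors deposited expression as FPKM in 1 table, in which 0 is written as 0.01. The aligner and the program that computed FPKM are not given in the sources used here. The deposited table also holds log2 fold changes, p-values and FDR of the authors' own comparison, which were not used. RRBS samples were not analysed here.

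Values of 0.01 were set back to 0, and log2 ratios of AD1KO to fl/fl were computed after 0.01 FPKM was added. Genes with at least 0.1 FPKM in a library were tested, which left 15839 of 17335 and all 85 members. As in the study's methods, a log2 ratio of 0.5 counted as lower or higher. Low FPKM values fall on steps of whole reads. These steps gave a depth of 17550000 reads for fl/fl and 17450000 for AD1KO, with 115 bases taken off each transcript length. Of 217 and 234 low values, 77.0% and 73.5% lay within 0.15 of a whole read, so estimated reads are approximate. From these reads exact Clopper-Pearson intervals at 95% were computed. They cover counting error only, as the table holds no molecular identifiers. The script was tested on simulated data. Promoter windows are from RefSeq (GRCm38.p6).

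The members, the gene lists and the tests were chosen with earlier results of these data known. Genes named are the 5 highest and 5 lowest ratios among members of at least 5 FPKM, the 5 most abundant members, members past 0.5, the stalk and 5S members, the paralogs, Rack1 and Fau as ribosomal proteins outside the rule, growth regulators, Dnmt1, Esr1 and up to 2 genes past 0.5 per direction in other lists. The partners of paralogs, Rps29, Rps6, Rpl10, Rps13, Adipoq, Tpt1, Eef1a1, Nap1l1 and the unnamed entries were named after their values were seen. Some genes that this rule names are not reported here. Alternatives were 4 other scalings, other pseudocounts (0.1 and 1 FPKM), filters and thresholds. Software was pandas 2.3.3, SciPy 1.17.1 and NumPy 2.4.6 under Python 3.11.15, with Matplotlib 3.10.9 for plots.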

Additional observations from a re-analysis of the deposited data

How the results depend on the processing

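No paired analysis was possible because each group is 1 pooled library. For the same reason no replicate could be left out, and the spread between animals is unknown. Ribosomal protein members lower by at least 0.5 numbered 2 under TMM (trimmed mean of M values), 1 under upper-quartile scaling, 4 under the median of ratios and 2 when the libraries were scaled by the sum of all genes but the members. The number was 1 at a threshold of 1 and 1 when the whole counting interval had to lie below -0.5. It stayed at 8 or 9 under the other settings, which included 8 with unnamed entries summed in, an alternative chosen after seeing the data. Members higher by at least 0.5 numbered 0 under every setting run. The median of the members ran from -0.37 to -0.28, the last under upper-quartile scaling, where large subunit members had -0.28, small subunit members -0.29, other TOP mRNAs -0.15, initiation and elongation factors -0.013 and growth regulators -0.0083. Under TMM, upper quartile, the median of ratios and the sum without members, adipocyte markers had medians of 0.73, 0.77, 0.72 and 0.73, and stromal progenitor markers 0.16, 0.21, 0.16 and 0.17. Macrophage markers had -0.999, -0.957 and -0.995 under TMM, upper quartile and the sum without members. With a pseudocount of 1 FPKM, NK cell markers had -1.13 and T cell markers -1.34. Of all genes tested, 1661 were lower and 965 higher with a pseudocount of 1 FPKM, 1417 and 910 at a threshold of 1, and 1281 higher at a minimum of 1 FPKM. The scalings moved log2 ratios by no more than 0.09, and pseudocounts and filters cannot turn a sign. No named gene past 0.5 could therefore change sign under these settings, and that none did is no check. Named genes near 0 could change sign, as Fau did, from -0.05 to 0.03 under upper-quartile scaling. The members' share of reads, 3.83% and 2.98%, was smaller than that of FPKM by construction, as FPKM divides by length.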

Other observations

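Of the 96 unnamed entries annotated as ribosomal proteins with a mean under 100 FPKM, 92 passed the filter, 46 of these were below 0 and 44 above 0. They had a median of 8.63 estimated reads over both libraries, and the counting intervals of 74 held 0, while 13 lay below 0 and 5 above 0. Together the 96 held 266.5 FPKM in fl/fl and 208.2 FPKM in AD1KO, and the summed reads of the 92 gave a log2 ratio of -0.23 (interval -0.31 to -0.15). The reference annotation (GENCODE vM1) lists 163 genes named as Rp pseudogenes. How reads with several matches were counted is not given in the sources used here. With all unnamed ribosomal protein entries added, the family held 12.8% of summed FPKM in fl/fl and 10.5% in AD1KO.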
